A study of Mus musculus with 4 samples.

Results

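The genes described here are 9 genes of the hormone-sensing programme of the mammary gland: the receptors Esr1, Pgr and Prlr and the genes Greb1, Cited1, Tnfsf11, Calcr, Tff3 and Agr2, which are known as targets or partners of those receptors. They were chosen by name, and all 9 were among the 31053 genes of the count matrices. Esr1 encodes estrogen receptor alpha, Pgr the progesterone receptor and Prlr the prolactin receptor. In the mammary gland estrogen and progesterone act first on a minority of luminal cells that make these receptors. Those cells release ligands such as amphiregulin (Areg), WNT4 and RANKL (the product of Tnfsf11). These act on neighbouring cells, among them basal and luminal progenitor cells, that carry EGF receptor, Frizzled and LRP proteins, or RANK (the product of Tnfrsf11a). Prolactin acts through its receptor, JAK2 and STAT5, and the transcription factor Elf5 is part of that path in luminal progenitors.

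Single-cell 3′ RNA libraries had been made from cells of the fourth mammary glands of 4 FVB mice, with 1 library per mouse. All 4 mice carried homozygous floxed Tfap2c, the gene of transcription factor AP-2γ, and the Krt5-CreERT2 transgene, so the controls shared both alleles. In this transgene the Krt5 promoter, which is active in basal cells, drives a Cre recombinase that tamoxifen derivatives switch on. Injections began at postnatal week 4 with corn oil, the vehicle, in 2 mice and with 4-hydroxytamoxifen (4OHT) in the other 2, and glands were taken at week 9. The labels give the injections as 5 days in one place and 1 week in another, and estrous stage is not given in the sources used here. 4OHT itself binds the estrogen receptor, so exposure to it and recombination cannot be told apart in this design.

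The 4 libraries held 18223 cell barcodes and between 17351950 and 22017878 unique molecular identifiers (UMIs, single captured transcripts) each. Cells with at least 1000 UMIs were placed in classes by keratins, Acta2 and 6 luminal genes, none of which is among the 9. The hormone-sensing luminal class held 151 and 330 cells in corn oil replicates 1 and 2, and 240 and 447 cells in 4OHT replicates 1 and 2. The luminal progenitor class held 1132 to 1770 cells per library and the basal class 1421 to 2178. Markers not used by the class rule followed the class names: a list of luminal progenitor genes summed to between 11359 and 15493 CPM (a gene's UMIs over the sum of its class and library, scaled to a common total) in the progenitor class and to between 425 and 609 CPM in the hormone-sensing class, and a list of basal genes summed to 5787 to 7235 CPM in basal and 76.5 to 149 CPM in hormone-sensing cells. Between 17.5% and 30.2% of the progenitor class in each library lacked clear progenitor genes and is considered below. Any pair of libraries shared 18 to 36 barcodes.

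Tfap2c, the targeted gene, stood at 389 and 285 CPM in basal cells of corn oil replicates 1 and 2 and at 285 and 325 CPM in those of 4OHT replicates 1 and 2. The groups overlapped, and the log2 change was −0.08 (SE 0.25, adjusted p = 1.00 by edgeR's quasi-likelihood test). Counts of transcript 3′ ends do not tell apart exons, so they do not measure recombination, and every direction given for 4OHT rests on the library labels alone.

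The windows before the starts of Esr1, Pgr and Cited1 are shown first, and no link of their letters to the later results was tested. The 250 bases before the most upstream RefSeq start (GRCm38.p6) were searched on both strands for an estrogen response element half-site (GGTCA), its full palindrome (GGTCANNNTGACC), an AP-2 site (GCCNNNGGC), a progesterone response element half-site (AGAACA) and a STAT5 site (TTCNNNGAA). The full palindrome contains the half-site. In the lines that follow, 5′ to 3′ on the gene's strand, capitals mark each match.
Esr1, chr10:4611739-4611988, plus strand: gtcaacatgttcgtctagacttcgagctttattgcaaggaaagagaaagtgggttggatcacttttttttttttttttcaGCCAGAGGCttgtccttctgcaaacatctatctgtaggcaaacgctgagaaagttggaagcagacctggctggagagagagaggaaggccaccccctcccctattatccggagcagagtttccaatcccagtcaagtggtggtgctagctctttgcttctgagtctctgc
Pgr, chr9:8899583-8899832, plus strand: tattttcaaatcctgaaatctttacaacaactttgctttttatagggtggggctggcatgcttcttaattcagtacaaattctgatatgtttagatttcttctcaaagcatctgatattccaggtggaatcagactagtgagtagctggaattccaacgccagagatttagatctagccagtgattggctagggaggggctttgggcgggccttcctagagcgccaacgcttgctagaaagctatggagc
Cited1, chrX:102252182-102252431, minus strand: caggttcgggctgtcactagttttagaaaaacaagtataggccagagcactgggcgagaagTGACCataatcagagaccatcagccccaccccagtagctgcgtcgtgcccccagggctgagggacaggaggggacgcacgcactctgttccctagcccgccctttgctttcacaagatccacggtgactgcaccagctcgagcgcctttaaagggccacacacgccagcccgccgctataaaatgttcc

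The Esr1 window held 1 match to the AP-2 letters, GCCAGAGGC, which spans 170 to 162 bases before the start. The Cited1 window held 1 half-site, TGACC on the gene's strand, 189 to 185 bases before the start. The Pgr window held none of the searched letters. Such matches are common: of all 32851 promoter windows of that length, 35.2% held the half-site, 13.7% the AP-2 letters, 16.1% the progesterone half-site, 7.02% the STAT5 letters and 0.0639% the palindrome. Of the 9 genes 8 had a promoter entry, with 15 windows in all, and Tff3 had none. Windows not printed here also held matches. A further Cited1 window held a half-site and an AP-2 match, and a further Esr1 window a STAT5 match. The most upstream Prlr window held no match, while another held a progesterone half-site and a STAT5 match. Both Greb1 windows held the estrogen half-site. In GENCODE release 21 (GRCm38), Esr1 (ENSMUSG00000019768) spans chr10:4611593-5005614 on the plus strand, Pgr (ENSMUSG00000031870) chr9:8899833-8968611 plus, Prlr (ENSMUSG00000005268) chr15:10177238-10349180 plus and Cited1 (ENSMUSG00000051159) chrX:102247381-102252181 minus. The Esr1 window lies in an exon of a longer GENCODE transcript of that gene.

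The 3 receptors and Cited1 carried nearly all the signal of the 9 genes. Over all cells of the 4 libraries Prlr had 4825 UMIs, Cited1 4469, Pgr 1597 and Esr1 564. Greb1, an estrogen-induced growth regulator, had 40. Tnfsf11, which encodes RANKL, had 3, and Agr2, a secreted disulfide isomerase, had 1. Calcr, the calcitonin receptor, and Tff3, a trefoil peptide, had 0 in 79023717 UMIs, which allows up to 0.038 CPM at 3 counts. The 3 Tnfsf11 UMIs lay in cells outside the luminal and basal classes, 1 in corn oil replicate 2 and 2 in 4OHT replicate 2, and the Agr2 UMI lay in a luminal progenitor of corn oil replicate 2. RANKL transcript was therefore not detected in 1168 hormone-sensing cells, where a count of 0 allows up to 0.423 CPM and 0.257% of cells with a UMI.

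Esr1 stood at 40.1 and 27.6 CPM in hormone-sensing cells of corn oil replicates 1 and 2 and at 43.8 and 31.5 CPM in those of 4OHT replicates 1 and 2. In luminal progenitors its levels were 3.58, 3.30, 3.69 and 4.83 CPM in the same order, and in basal cells 4.08, 2.45, 11.1 and 1.52 CPM. Every hormone-sensing value lay above every progenitor and basal value, while the progenitor and basal values overlapped. The high basal value came from 66 UMIs in 4OHT replicate 1, against 10 to 33 UMIs in the other basal sums.

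Pgr stood at 138, 203, 182 and 147 CPM in hormone-sensing cells in that library order. It stood at 2.20, 12.9, 2.98 and 14.7 CPM in progenitors and at 1.98, 5.05, 1.18 and 4.70 CPM in basal cells. The hormone-sensing values again lay apart from all others, and outside that class both libraries numbered 2 were higher than both numbered 1, whatever their treatment. Prlr showed the same arrangement, with 524, 362, 639 and 582 CPM in hormone-sensing cells, 16.9, 33.4, 10.4 and 44.9 CPM in progenitors and 1.85, 4.59, 1.85 and 7.59 CPM in basal cells. Prlr was the receptor whose progenitor values lay entirely above its basal values.

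Cited1 encodes a transcriptional coregulator that works with the estrogen receptor. It stood at 569, 318, 251 and 781 CPM in hormone-sensing cells, at 3.99, 13.1, 2.74 and 33.0 CPM in progenitors and at 8.53, 9.79, 3.54 and 13.7 CPM in basal cells. Its spread between libraries was the widest of the 4 genes in the hormone-sensing class, with a mean of 480 ± 243 CPM (SD, n = 4) against 35.8 ± 7.46 for Esr1, 167 ± 30.2 for Pgr and 527 ± 119 for Prlr. Greb1 had 2, 1, 19 and 3 UMIs in the hormone-sensing sums, and 15 of the 20 hormone-sensing cells with a Greb1 UMI were in 4OHT replicate 1.

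**Figure D1:**
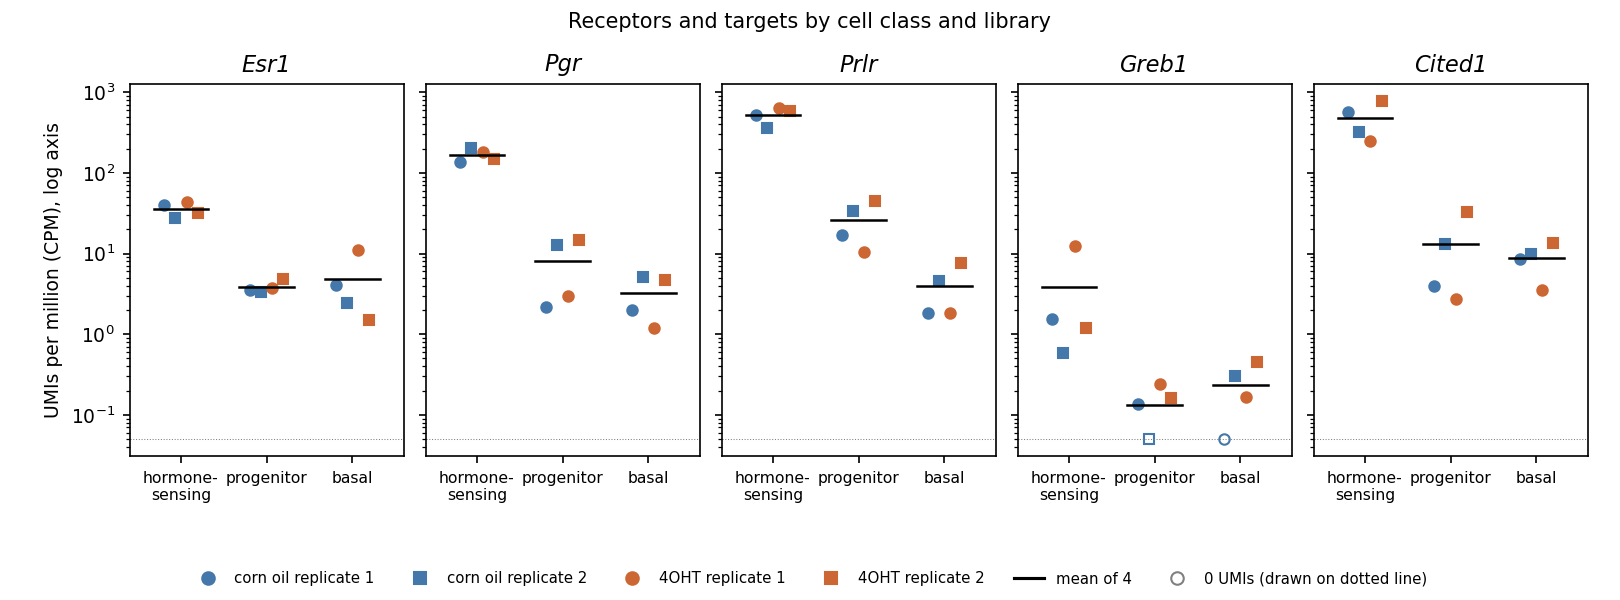
Level in CPM (log axis) of Esr1, Pgr, Prlr, Cited1 and Greb1 in each of the 4 libraries by cell class, with 1 point per library, a bar at the mean and open points on the dotted line for 0 UMIs. Hormone-sensing values of Esr1 lie between 27.6 and 43.8 CPM and those of Prlr between 362 and 639 CPM, above the progenitor and basal points of the same gene.

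All 3 receptors and Cited1 were higher in hormone-sensing cells than in luminal progenitors and than in basal cells, in 4 of 4 libraries. In a fit of the 12 class-by-library sums with library as a block, the Esr1 log2 difference from progenitors was 2.96 (SE 0.33, adjusted p = 2.28e-06 by edgeR), a 7.76-fold higher level. Pgr was 20.8-fold higher than in progenitors, Prlr 19.2-fold and Cited1 37.9-fold, with adjusted p of 3.95e-08, 2.89e-08 and 5.12e-09. These 4 of the 9 passed the filter on low counts, which they could pass through the hormone-sensing class alone, and of all 11135 genes tested 46.4% were called and 21.9% were called higher.

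Against basal cells the fold was 8.31 for Esr1, 57.3 for Pgr, 149 for Prlr and 56.3 for Cited1 (edgeR adjusted p = 6.35e-07, 1.59e-09, 2.03e-10 and 6.44e-10). In that comparison 59.8% of tested genes were called and 27.3% were called higher. The progenitor and basal classes, next in order below the hormone-sensing class, were distinguished by Prlr, with a log2 difference of 2.95 (SE 0.36, adjusted p = 3.21e-06), and by Pgr, with 1.47 (SE 0.40, adjusted p = 0.00502), where 56.1% of all genes were called and 26.6% were called higher in progenitors. Esr1 (log2 0.10, adjusted p = 0.830) and Cited1 (log2 0.57, adjusted p = 0.166) did not pass between those 2 classes. Without 4OHT replicate 1 Esr1 was 0.86 log2 units higher in progenitors and passed (adjusted p = 0.0357), and without corn oil replicate 1 Cited1 did so too, with 0.90 (adjusted p = 0.0361).

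The Pgr call between progenitors and basal cells was lost under a limit on progenitors, with a log2 difference of 0.81 and adjusted p = 0.137 by edgeR. The limit kept cells with at least 3 UMIs of Wfdc18, Csn3 and Ltf that exceeded those of Ly6d, Fxyd2 and Gpx3. It was set after the data were seen. In the cells which that limit left out, Pgr stood at 3.64, 45.4, 9.40 and 37.5 CPM, against 1.95, 7.35, 0.80 and 10.6 CPM in the progenitors kept. Some of these Pgr values rest on few UMIs, with 4 left out in corn oil replicate 1 and 5 kept in 4OHT replicate 1. Prlr stood at 21.9, 130, 14.1 and 119 CPM in the cells left out and at 16.0, 16.8, 9.08 and 31.8 CPM in those kept. The cells left out had the higher level of both genes in 4 of 4 libraries, and the Prlr call stood under that limit.

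The number of Prlr UMIs per Esr1 UMI, a ratio that depth does not change, was 13.1, 13.1, 14.6 and 18.5 in hormone-sensing cells. It was 4.73, 10.1, 2.81 and 9.30 in progenitors and 0.455, 1.88, 0.167 and 5.00 in basal cells. The exact 95% counting intervals of hormone-sensing cells and progenitors overlapped in corn oil replicate 2 (9.73 to 18.0 and 6.37 to 16.9) and not in the other 3 libraries. Those of hormone-sensing and basal cells overlapped in none of the 4 libraries, with basal ratios resting on 10 to 66 Esr1 UMIs.

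Cells were next thinned to 2000 UMIs each, so that depth did not decide whether a transcript was seen. An Esr1 UMI was then found in 5.30%, 4.60%, 8.90% and 6.65% of hormone-sensing cells, in the library order used above. A Pgr UMI was found in 19.2%, 27.9%, 25.4% and 21.6%, and a Prlr UMI in 47.7%, 45.1%, 58.9% and 60.6%. Cited1 was seen in 36.4%, 19.6%, 19.9% and 39.2%, high in corn oil replicate 1 and 4OHT replicate 2 and low in the other two.

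Without thinning, the shares were 12.4% to 25.8% for Esr1, 43.0% to 52.1% for Pgr, 67.0% to 84.3% for Prlr and 32.4% to 58.9% for Cited1, at median depths of 4745 to 8258 UMIs. Endothelial cells were chosen as a type that should lack most of the 9 genes. Of 148 thinned endothelial cells 0 had an Esr1 or Prlr UMI, which allows up to 2.03%. A Pgr UMI was found in 1 and a Cited1 UMI in 2. The unthinned endothelial shares were 0.4% for Esr1 and Pgr, 0% for Prlr and 0.8% for Cited1, at median depths of 1850 to 3199 UMIs. In basal cells the thinned Esr1 share was 0.62%, 0.40%, 1.83% and 0.22%. The 148 endothelial cells are too few to set a limit under 2.03%, so they cannot tell whether these shares are background.

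**Figure D2:**
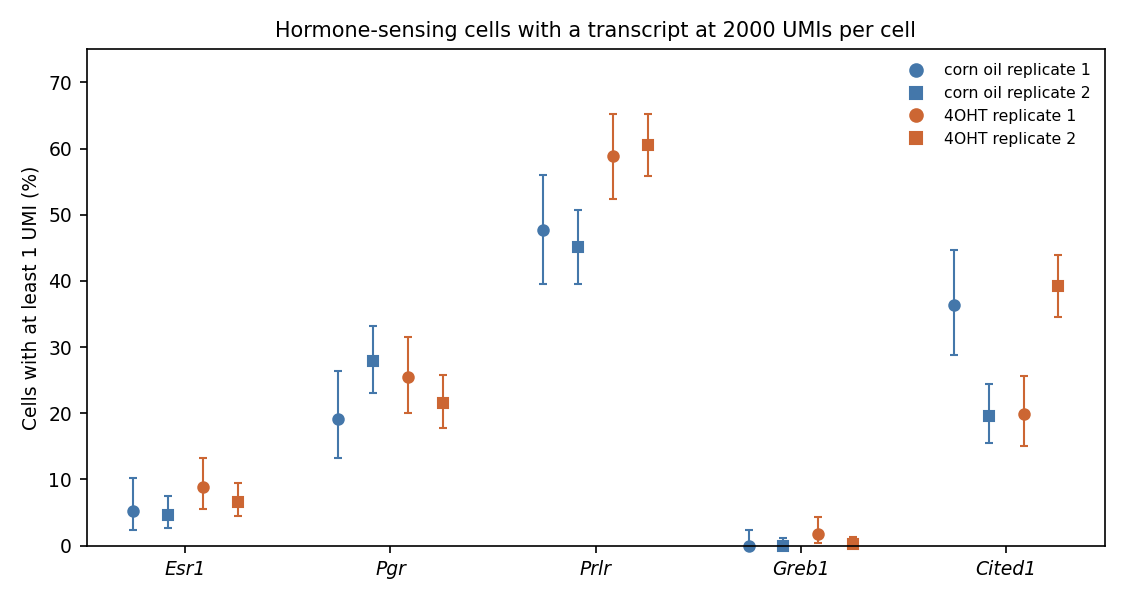
Percentage of hormone-sensing luminal cells with at least 1 UMI of each gene after thinning to 2000 UMIs, 1 point per library, with exact 95% binomial intervals. Prlr lies between 45.1% and 60.6% and Esr1 between 4.60% and 8.90%.

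Transcript numbers per detecting cell were low for Esr1 and Pgr and higher for Prlr and Cited1. A hormone-sensing cell with any Esr1 UMI held on average 1.33, 1.15, 1.21 and 1.13 of them, and one with any Pgr UMI 2.56, 2.12, 2.26 and 1.95, with at most 7 to 10 in a cell. One with any Prlr UMI held 5.40, 2.79, 5.14 and 3.92, with at most 22 to 31 in a cell. A cell with any Cited1 UMI held 8.29, 5.06, 5.00 and 8.03, with at most 37, 41, 39 and 64, so Cited1 lay above Prlr in 3 of 4 libraries and just below it in 4OHT replicate 1.

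The 10% of hormone-sensing cells with the most Cited1 held 54.9%, 81.7%, 75.9% and 61.0% of its UMIs. For Prlr the same share was 34.1%, 40.9%, 36.3% and 32.1%, lower in each library, and for Esr1, which few cells showed at all, 55.8%, 83.0%, 52.9% and 67.5%. The measure is high for any gene seen in few cells. Cells with 10 or more Cited1 UMIs numbered 28, 20, 14 and 62, or 18.5%, 6.06%, 5.83% and 13.9% of the class, against 19, 3, 30 and 23 with as many Prlr UMIs. The 2 libraries with high Cited1 CPM were the 2 with more such cells, whose UMIs are part of that CPM. These counts of cells were not thinned to a common depth. Areg, the EGF receptor ligand that estrogen induces in the pubertal gland, was also held at many UMIs per detecting cell, 9.57, 5.14, 11.2 and 9.12.

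Most thinned hormone-sensing cells showed 1 receptor or none. On average over the 4 libraries 34.3% had no Esr1, Pgr or Prlr UMI, 49.4% had UMIs of 1, 15.3% of 2 and 1.0% of all 3. Without thinning those shares were 10.2%, 42.9%, 37.7% and 9.19%, so these counts describe detection at a given depth rather than the receptors a cell makes.

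Pgr and Cited1 were found together less often than their separate shares give. The observed number of cells with both, divided by the product of the shares, averaged 0.64 ± 0.13 (SD, n = 4 libraries), with a range of 0.56 to 0.84, and a second random thinning, drawn after the data were seen, gave 0.64. Of Pgr-detected cells 20.7%, 10.99%, 16.7% and 23.4% had a Cited1 UMI, against 40.2%, 23.0%, 21.02% and 43.6% of the other hormone-sensing cells. The share was lower beside Pgr in each library, by least in 4OHT replicate 1. Without thinning the ratio was 0.93, with a range of 0.84 to 1.03. With 3000 UMIs it was 0.73, with a range of 0.57 to 1.004, so in both settings not every library lay under 1.

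Cited1 and Areg were found together more often, with a ratio of 1.58 ± 0.39 and a range of 1.22 to 2.13. Pgr and Prlr gave 0.99 ± 0.14, Prlr and Cited1 1.10 ± 0.15, and Prlr and Wnt4 1.23 ± 0.16. The ratio of Esr1 with Pgr ranged from 0 to 1.60, since few thinned cells held both. These ratios are descriptions over cells of 4 libraries and carry no test.

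**Figure D3:**
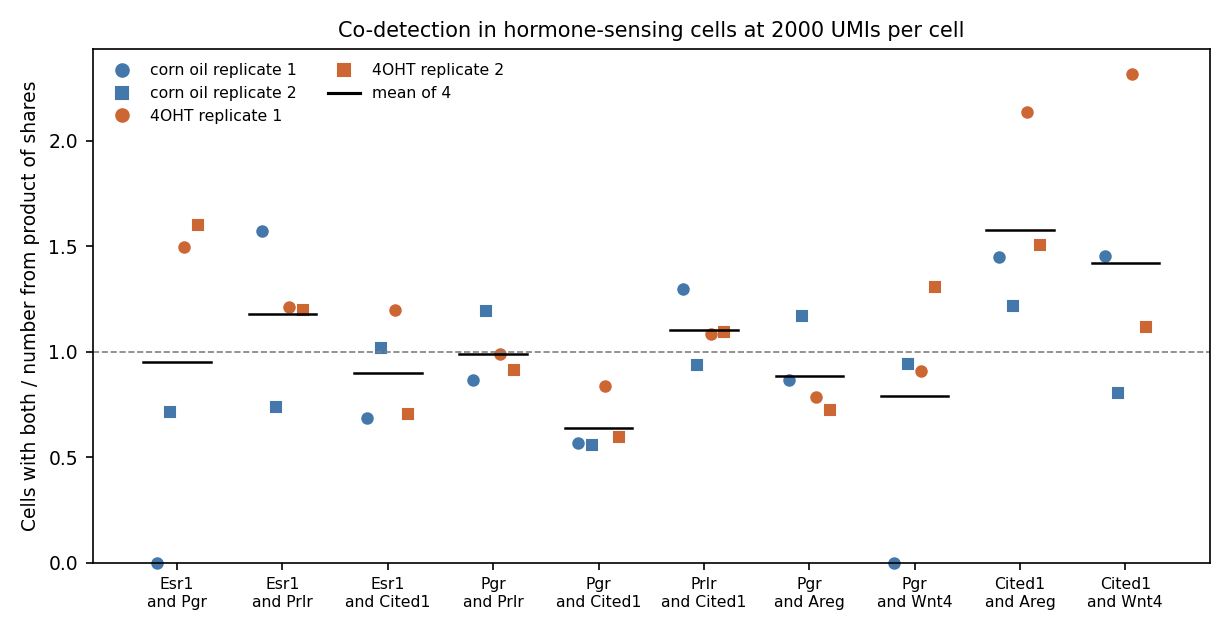
Ratio of the number of hormone-sensing cells with UMIs of both genes to the number the product of the 2 shares gives, after thinning, for pairs of genes, with 1 point per library, a bar at the mean and a dashed line at a ratio of 1. The Pgr and Cited1 points lie between 0.56 and 0.84, and the Cited1 and Areg points between 1.22 and 2.13.

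Cited1 was lower in hormone-sensing cells that kept a Pgr UMI after thinning than in the other cells of the class when all their transcripts were summed. The Pgr-detected cells numbered 29, 91, 60 and 94, and the other cells 122, 235, 176 and 342. Before thinning 70, 163, 125 and 192 cells had a Pgr UMI, so the other cells were not free of Pgr and held 78.2, 97.4, 92.5 and 74.7 CPM of it, against 406, 460, 436 and 429 CPM. Cited1 stood at 203, 114, 209 and 347 CPM in the Pgr-detected cells and at 650, 397, 262 and 891 CPM in the others. It was lower beside Pgr in 4 of 4 libraries, although the ranges of the 2 sets overlapped across libraries.

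In the fit with library as a block the Cited1 log2 difference was −1.36 (SE 0.17, adjusted p = 0.00108 by edgeR), the smallest adjusted p of the 5307 genes tested together with that of Rasd1, which was 1.46 log2 units higher. Of all genes tested 1.49% were called. Prlr (log2 0.15, adjusted p = 0.510) and Esr1 (log2 −0.11, adjusted p = 0.848) were not called. Areg was 0.59 log2 units lower without passing (adjusted p = 0.0629), and it passed in a second thinning (log2 −0.82, adjusted p = 0.00339). None of the 32 pathway genes tested passed. An unadjusted p under 0.05 was reached by 11 of them, beside 995 of all 5307 genes tested.

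The Cited1 call was lost without the library block (log2 −1.40, edgeR adjusted p = 0.411). It stood under the other alternatives, from −0.99 to −1.74. The number of genes called was 26 without 4OHT replicate 2, and 230 in the second thinning.

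Other transcripts moved with this split. The 6 heat shock protein genes Hsp90aa1, Hspb1, Hspd1, Hspe1, Hspa8 and Dnajb1 and the 5 endoplasmic reticulum chaperone genes Sdf2l1, Hspa5, Calr, Hsp90b1 and Pdia6, were called lower in Pgr-detected cells; both lists were put together from the called genes, which fixes their count. Fewer of the 6 and of the 5 were called with stricter classes (3 and 1), by DESeq2 (2 and 4) and without 4OHT replicate 2 (3 and 3), and 1 of the 5 was called in the second thinning. The heat shock genes summed to 2831, 2053, 4932 and 6113 CPM in Pgr-detected cells and to 9044, 4360, 6227 and 8264 CPM in the others. Since these genes were picked as called lower in this split, their lower sums follow from that choice and add no evidence. Of a list of 8 genes that respond to cell preparation, 1 (Dnajb1) was called, and 4 in the second thinning. That list summed to 1735, 1704, 3112 and 3865 CPM in Pgr-detected cells against 3536, 2622, 3103 and 4314 CPM in the others, lower in both corn oil libraries and near equal in 4OHT replicate 1.

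Median UMIs per cell were 8165, 4867, 6512.5 and 4697 in Pgr-detected cells against 8298.5, 4721, 6087 and 5364, and the median mitochondrial percentage was 2.69, 2.44, 2.27 and 2.58 against 2.06, 2.42, 2.19 and 1.95. The class-rule genes Ly6d, Fxyd2 and Gpx3 summed to 3186, 3706, 3648 and 3337 CPM in Pgr-detected cells against 2581, 2593, 3367 and 2710 CPM. The basal marker list summed to 63.5, 58.1, 84.7 and 125 CPM against 126, 84.2, 141 and 156 CPM. The progenitor marker list and the progenitor and basal rule genes went both ways between libraries. The part of these in the Cited1 difference was not tested.

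**Figure D4:**
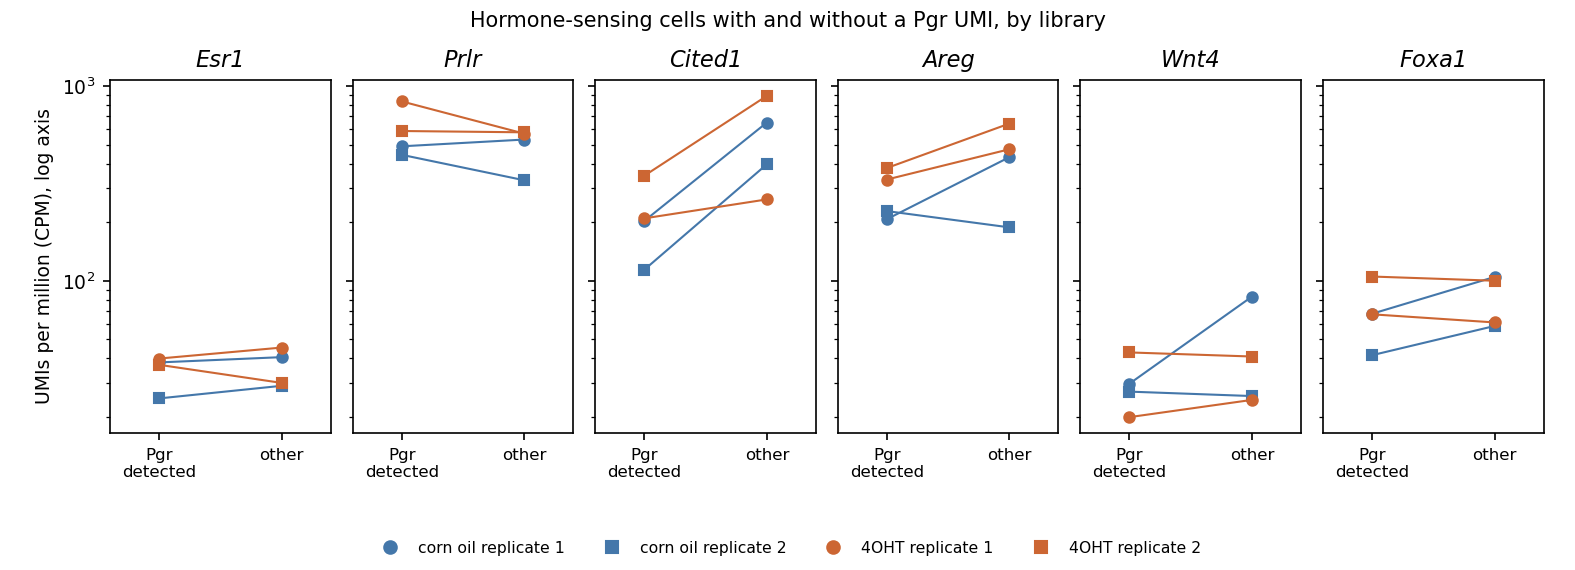
Level in CPM (log axis) of Esr1, Prlr, Cited1, Areg, Wnt4 and Foxa1 in hormone-sensing luminal cells with a Pgr UMI after thinning and in the other hormone-sensing cells, joined by library. Cited1 is lower in the Pgr-detected cells of each library, for example 203 against 650 CPM in corn oil replicate 1.

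Ligands of the pathway and the genes that receive them were described next. A list of 71 pathway genes was used, of which 59 were tested between classes. Beside the counts given here stand the 46.4%, 59.8% and 56.1% of all genes called in the 3 class comparisons, and no list was tested for standing apart from them. From progenitors to hormone-sensing cells 16 were called higher, 20 lower and 23 not, with a median log2 difference of −0.17 against −0.02 over all genes. Against basal cells 21 were called higher, 23 lower and 15 not, with a median of −0.15 against −0.08. Between progenitors and basal cells 19 were called higher in progenitors, 23 lower and 17 not, with a median of −0.10 against −0.04.

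Of the ligands, Areg averaged 405 CPM in hormone-sensing cells, 18.4 in progenitors and 3.93 in basal cells, with log2 differences of 4.22 and 6.70. Wnt4, which progesterone induces, averaged 41.2, 3.82 and 4.96 CPM and was higher in hormone-sensing cells than in both other classes, by 3.12 and 2.99 log2 units. Of the 3 ligand and progesterone-regulated genes tested, Wnt4 was the 1 called higher against each class. Id4, a helix-loop-helix regulator made by basal cells, was called lower than in basal cells by 5.70 log2 units.

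Egfr, a receptor for amphiregulin, and Tnfrsf11a, which encodes the receptor for RANKL, were lowest in hormone-sensing cells among the luminal and basal classes. In endothelial cells, pooled over libraries, Egfr had 0 UMIs and Tnfrsf11a stood at 52.7 CPM, from 36 UMIs in 26 of 250 cells. Tnfrsf11a averaged 1.28 CPM in hormone-sensing cells, 9.05 in progenitors and 18.0 in basal cells, and was called lower in hormone-sensing cells by 2.89 and 3.60 log2 units. Egfr averaged 1.93, 18.8 and 35.5 CPM and was called lower by 3.52 and 4.23. Both were also called lower in progenitors than in basal cells, each by 0.71 log2 units (edgeR adjusted p = 0.0124 and 0.00308). Those calls were lost without 4OHT replicate 2 (adjusted p = 0.0745 and 0.0513), and for Tnfrsf11a without corn oil replicate 2 (adjusted p = 0.0735).

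Of the 20 tested genes that receive paracrine signals 2 were called higher, 11 lower and 7 not in hormone-sensing cells against progenitors, with a median of −0.98. The Wnt receptors went both ways, with Fzd1 lower by 2.21 and Fzd6 higher by 2.18 log2 units, genes named after their values were seen. Against basal cells 4 were called higher, 9 lower and 7 not. Igf1r, the IGF1 receptor, was lower by 2.63 and 4.45 log2 units. Erbb3, a member of the EGF receptor family, went the other way against basal cells and was higher by 4.60. Ramp3, a partner of the calcitonin receptor-like receptor, was lower than in basal cells by 5.79.

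**Figure D5:**
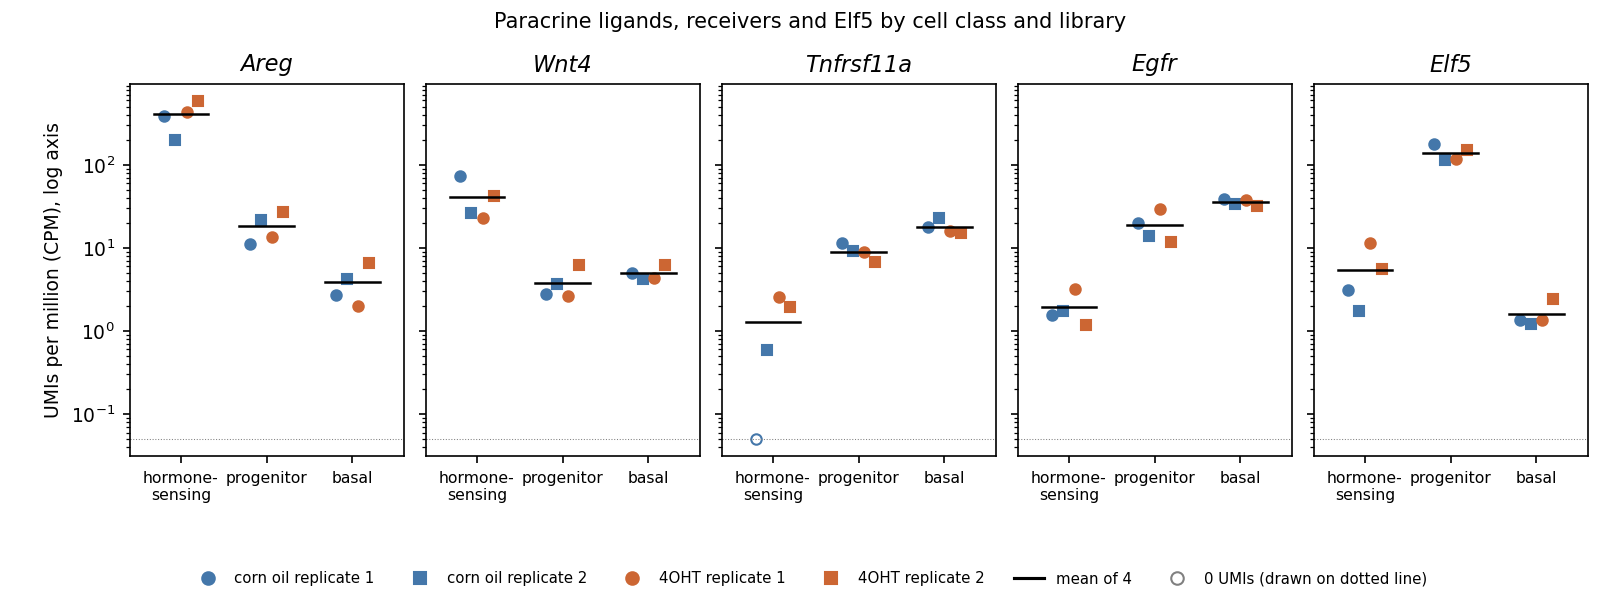
Level in CPM (log axis) of the ligands Areg and Wnt4, the receivers Tnfrsf11a and Egfr, and Elf5 by cell class, with 1 point per library, a bar at the mean and an open point on the dotted line for 0 UMIs. Among the classes shown, Areg and Wnt4 are highest in hormone-sensing cells, with means of 405 and 41.2 CPM. Tnfrsf11a and Egfr are lowest there, with means of 1.28 and 1.93 CPM.

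Transcription factors that act beside the estrogen receptor were mostly high with it. Of 8 tested, 6 were called higher, 1 lower and 1 not in hormone-sensing cells against progenitors, with a median of 2.09. Foxa1, a pioneer factor for estrogen receptor binding, averaged 79.5 CPM in hormone-sensing cells, 3.55 in progenitors and 0.64 in basal cells. Msx2, a homeobox factor, averaged 62.5 against 2.27 CPM in progenitors, and Tbx3, a T-box factor, 48.9 against 5.57. Gata3, a luminal fate factor, averaged 310 CPM against 105 in progenitors and 136 in basal cells. Tfap2c was the 1 called lower, with 8.99 CPM against 43.5 in progenitors and 321 in basal cells.

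Among 10 tested estrogen-regulated genes, 3 were called higher, 2 lower and 5 not in hormone-sensing cells against progenitors. Besides Areg, Stc2, a secreted glycoprotein, averaged 435 against 20.2 CPM and Myb, a transcription factor, 25.0 against 1.13. Wisp2, a secreted signalling protein, was called lower by 1.42 log2 units (edgeR adjusted p = 0.0400). Against basal cells 6 were called higher and 4 lower. Cxcl12, a chemokine made by basal cells, was 6.48 log2 units lower and Igfbp4, an IGF-binding protein, 4.92 lower.

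Of 9 tested genes of the prolactin path 3 were called higher, 3 lower and 3 not in hormone-sensing cells against progenitors. Elf5 averaged 5.49 CPM in hormone-sensing cells, 140 in progenitors and 1.59 in basal cells while Prlr averaged 527, 26.4 and 3.97 CPM in the same classes. Socs3, a feedback inhibitor of cytokine receptors, averaged 258 CPM against 26.9 in progenitors and 292 in basal cells. Stat5a was higher in hormone-sensing cells than in basal cells by 2.52 log2 units. Of 9 tested receptors and coregulators 1 was called higher, 3 lower and 5 not against progenitors, and among those lower were Nr3c1, the glucocorticoid receptor, by 1.76, and Vdr, the vitamin D receptor, by 1.64.

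Over the 12 class-by-library sums, the profiles most like that of Prlr were those of Areg (Pearson r of log2 CPM plus 1, 0.993), Mad2l2 (0.988) and Tspan1 (0.986), among 4141 genes. Those most like Pgr were Tspan13 (0.990), Col8a1 (0.988) and Cd164 (0.986). Esr1 was followed by Uchl5 (0.956), Atxn10 (0.953) and Mrps33 (0.951). The 12 sums share libraries and fall into 3 classes, so these values describe the class pattern.

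The study compared corn oil with 4OHT. Of the 9 genes, Esr1, Pgr, Prlr and Cited1 had counts enough to be tested in hormone-sensing cells, and none of these 4 passed the test. In hormone-sensing cells Prlr was listed above at 524 and 362 CPM in corn oil and at 639 and 582 CPM in 4OHT. Its log2 change was 0.44 (SE 0.25, unadjusted p = 0.114, adjusted p = 1.00 by edgeR). Between libraries of the same number the change was 0.28 and 0.68. Esr1 went from 33.9 ± 8.80 to 37.6 ± 8.68 CPM (SD, n = 2 each), with a log2 change of 0.12 (SE 0.33), and Pgr from 170 ± 45.9 to 164 ± 24.3, with −0.11 (SE 0.30).

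Cited1 had a log2 change of 0.21 (SE 0.47), but replicate 2 of 4OHT was 1.29 above replicate 2 of corn oil and replicate 1 differed by −1.18. The adjusted p of these 4 genes was 1.00, and of the 7589 genes tested in hormone-sensing cells 0.0132% were called. That is 1 gene, and 240 had an unadjusted p under 0.05 and DESeq2 called 7. In progenitors 0% and in basal cells 0% of 10120 and 10788 genes were called by edgeR, with 166 and 465 at an unadjusted p under 0.05 and 1 and 38 called by DESeq2. None of the 4 genes passed in either class.

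The share of hormone-sensing cells with a Prlr UMI was 46.4% ± 1.83 in corn oil and 59.7% ± 1.17 in 4OHT (SD, n = 2). That difference of 13.3 percentage points, and the small spread within each group, varied with the thinning. In the second draw the shares were 50.8% ± 5.90 and 59.8% ± 4.29, a difference of 9.02 points. Thinning to 3000 UMIs gave a difference of 9.66 points, with a corn oil SD of 6.86. The exact two-sided permutation p was 0.3333, the smallest that 2 libraries against 2 can give. The difference was 7.17 points without thinning, where the groups overlapped. The Esr1 share was 4.95% ± 0.49 and 7.77% ± 1.59, with the groups apart in this draw. In the second draw the Esr1 groups overlapped, with 6.56% ± 1.03 and 8.38% ± 3.74. They also overlapped with 3000 UMIs, a difference of 2.18 points, and without thinning, a difference of 0.48 points. They stayed apart with the cell filter, with doublets left out and with stricter classes. The Pgr share was 23.6% ± 6.16 and 23.5% ± 2.73, and the Cited1 share 28.0% ± 11.9 and 29.6% ± 13.7. Greb1 was not tested for its level, and its share was 0% in both corn oil libraries and 1.69% and 0.23% in 4OHT. Without thinning the Greb1 share was 1.32% and 0.30% in corn oil and 6.25% and 0.45% in 4OHT, so the groups overlapped. In the second draw it was 0.66% in corn oil replicate 1, and with doublets left out it was 0% in 4OHT replicate 2.

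In hormone-sensing cells none of the 8 tested estrogen-regulated genes passed between the groups. An unadjusted p under 0.05 was reached by 5 of them, beside 240 of all 7589 genes tested. The median log2 change of the 8 was 0.57 against −0.01 over all genes. Areg averaged 295 ± 135 CPM in corn oil and 514 ± 106 in 4OHT, and Xbp1, a regulator of secretory capacity, 55.6 ± 9.63 and 132 ± 12.4. The Areg log2 change was 0.17 between libraries numbered 1 and 1.56 between those numbered 2. Wisp2 lay in the other direction, with 21.8 ± 9.06 and 3.65 ± 1.52 CPM. These 3 are named after their values were seen. The smallest adjusted p among the 8 was 0.628 by edgeR. After thinning, the share of cells with an Areg UMI overlapped, from 14.1% to 23.8% in corn oil and from 16.9% to 28.0% in 4OHT.

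The gene called in hormone-sensing cells was Ctsr, a cathepsin with close relatives in its gene family, so its counts are uncertain. It is outside the lists and is named after its values were seen. It had 2 and 6 UMIs in corn oil and 91 and 130 in 4OHT, from 9 and 13 cells in the latter, and a log2 change of 4.29 (SE 0.46, edgeR adjusted p = 0.0383). With cells of at least 2000 UMIs it did not pass (adjusted p = 0.0577).

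Markers of other cells in the hormone-sensing class are given beside these comparisons. The fibroblast list summed to between 53.5 and 1346 CPM, of which Dcn alone, the proteoglycan decorin, made up 243, 50.6, 1325 and 237 CPM in 45, 41, 106 and 75 cells. The other 5 fibroblast markers summed to at most 20.6 CPM. Endothelial markers summed to 17.4 to 93.3 CPM, and leukocyte markers to at most 122 CPM, in 4OHT replicate 1. The part of the high Dcn of 4OHT replicate 1 in the values of that library was not tested.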

How the data were processed

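Libraries of 4 mice, 1 each, were compared. The authors deposited raw UMI counts per gene and cell, made with Cell Ranger 3.0.1 and mm10, per the submitters' processing notes; strand and use of introns are not given in the sources used here. Genes, lists and tests were chosen with earlier results of these data known. Cells with at least 1000 UMIs were classed: with B the summed Krt5, Krt14, Krt17 and Acta2 counts and L the summed Krt8, Krt18 and Krt19 counts, basal cells had B of at least 5 and over 3 times L, and luminal cells the reverse. Luminal cells were hormone-sensing with at least 3 UMIs of Ly6d, Fxyd2 and Gpx3 that exceeded Wfdc18, Csn3 and Ltf, and otherwise progenitors. Doublets were kept; leaving out the 682 cells with the highest Scrublet scores was an alternative.

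Counts were summed per library and class, and CPM is relative to that sum. The test was that of edgeR 4.0.16 in R 4.3.3 (TMM, filterByExpr, quasi-likelihood F-test), with Benjamini-Hochberg adjustment over all tested genes and a threshold of 0.05. DESeq2 1.42.0 was an alternative. Class and Pgr comparisons had library as a block. The script was checked on simulated data. Shares used cells thinned to 2000 UMIs, exact Clopper-Pearson 95% intervals and exact permutation tests, with scipy 1.17.1. Intervals and floors of 3 counts cover counting error only. For treatment, p-values measure the spread between these 4 libraries. Those of the class and Pgr comparisons, with library as a block, measure the spread of the differences within libraries. Named pathway genes were 8 always named, plus examples from the 5 largest folds in each direction among called genes that averaged 20 CPM or more in the higher class. In the treatment comparison, Areg, Xbp1 and Wisp2 were named after their values were seen. Other settings were a cell filter, stricter classes, no low-count filter, other size factors, other thinning and leaving out each library.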

Additional observations from a re-analysis of the deposited data

Results flagged for a closer look

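Cells under 1000 UMIs, 37, 90, 139 and 125 in the 4 libraries, were outside every comparison. They held UMIs of 4 of the 9 genes: 5 of Esr1, 4 of Pgr, 14 of Prlr and 4 of Cited1 over the 4 libraries. These were listed because they lie above the 3 counts that a count of 0 allows.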

How the results depend on the processing

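The receptor and Cited1 calls of hormone-sensing cells against progenitors and basal cells stood under every alternative run, with log2 differences of 2.78 to 3.18 for Esr1, 3.901 to 5.03 for Pgr, 3.81 to 4.73 for Prlr and 4.49 to 6.04 for Cited1 against progenitors. Counts of genes called between 4OHT and corn oil moved. In hormone-sensing cells 1 gene was called, 59 without the filter on low counts, 7 by DESeq2, 0 with cells of at least 2000 UMIs, and 4 to 80 with a library left out, the highest without 4OHT replicate 2. In progenitors 0 were called, 39 without the filter, 1 by DESeq2 and 31 to 64 with a library left out. In basal cells the numbers were 0, 93 and 38, and 17 to 127. With the replicate block they were 3, 9 and 167. Same-numbered libraries deviated together with correlations of 0.22, 0.32 and 0.56 in the 3 classes, over only 2 pairs, so the numbers were not taken to pair the mice. With a library left out, the lone library of its group is assumed to vary like the others.

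For Pgr-detected against other cells 79 genes were called, 384 without the filter, 44 by DESeq2, 30 with stricter classes, 574 with thinning to 3000 UMIs, 230 in a second thinning draw, 0 with no replicate block (507 at an unadjusted p under 0.05), and 26 to 90 with a library left out. The Pgr and Cited1 ratio was 0.93 without thinning.

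Directions that turned were all of values that did not pass. In the treatment comparison in hormone-sensing cells, with a library left out, Esr1 lay between −0.11 and 0.32 (−0.05 without corn oil replicate 2), Pgr between −0.42 and 0.31, and Cited1 between −0.86 and 0.82 (−0.07 without corn oil replicate 2). Between progenitors and basal cells Esr1 was −0.082 with doublets left out, −0.0087 with clear progenitors and −0.29 to 0.86 with a library left out (−0.02 without corn oil replicate 2), Cited1 −0.24 with clear progenitors, Wnt4 0.18 with stricter classes and −0.27 to 0.012 with a library left out, and Gata3 −0.17 to 0.061. In the Pgr comparison, Esr1 was 0.090, Prlr −0.032 and Foxa1 0.19 with 3000 UMIs, and Esr1 0.13 and Prlr −0.21 in the second draw. The Pgr share differed by 0.34 points with doublets left out and the Cited1 share by −1.80 points without thinning. The cause of these changes was not tested. Clear progenitors and the second draw were chosen after the data were seen. The treatment comparison rests on 2 mice per group and 151 to 447 hormone-sensing cells per library, and Esr1 and Greb1 on few UMIs.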
